A study of Homo sapiens with 12 samples.

Results

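The apolipoprotein cluster of chromosome 11 holds APOA5, APOA4, APOC3 and APOA1 within a short stretch. Its chromatin was described in HepG2 cells from chromatin immunoprecipitation and sequencing (ChIP-seq) of 3 histone modifications. HepG2 is a long-established human liver cancer line, labelled as hepatocellular carcinoma, and the cells were untreated. The labels give 12 libraries: 3 for each of the marks H3K27ac, H3K4me1 and H3K4me3, and 3 controls. The latter are titled input, whereas their antibody label is an anti-mouse IgG. Each mark came as 1 peak list that, going by its name, pools the 3 libraries. Replicate spread, library depth and values of the control libraries were therefore not analysed here, and the comparisons below carry no test. The members were all peaks that overlapped chr11:116630000-116760000 (GRCh37), a stretch of 130 kb. They numbered 50 of the 273822 peaks in the 3 lists, with 13 of H3K27ac, 30 of H3K4me1 and 7 of H3K4me3. The series' stated purpose for the marks was to rank variants that might be causal.

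The products of the 4 genes are lipid-carrying proteins of the plasma, and variation at the cluster is known for its association with plasma triglycerides. APOA1 is the main protein of high-density lipoprotein and activates the enzyme that esterifies its cholesterol. APOC3 inhibits lipoprotein lipase and slows the uptake of triglyceride-rich particles, while APOA5, made in the liver, promotes lipolysis. APOA4 is made mainly in the intestine in humans. A regulatory region upstream of APOC3 is known to act on neighbouring genes of the cluster. Of the marks, H3K27ac is found at active promoters and enhancers, H3K4me3 mainly at promoters of active genes, and H3K4me1 mainly at enhancers and beside promoters.

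In GRCh37, APOA5 spans chr11:116660086-116663136 on the minus strand and APOA4 spans chr11:116691418-116694011 on the minus strand. APOC3 spans chr11:116700624-116703787 on the plus strand and APOA1 spans chr11:116706467-116708338 on the minus strand. The 5′ end of each span is called its start here. APOC3 and APOA1 are thus transcribed towards each other, with 2679 bp between their 3′ ends. APOA4 and APOC3 point away from each other, with 6612 bp between their starts. APOA5 stands apart, with 28281 bp between its start and the 3′ end of APOA4.

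The promoter sequences of APOA5 and APOA4, the 2 of the 4 genes matched in the RefSeq promoter table, are shown beside the marks at their starts, described further on. They are the 250 bases before the start in RefSeq (GRCh38.p14, chromosome 11, minus strand), 5′ to 3′, and RefSeq's start need not be the same base as the GRCh37 start above. Capitals mark matches to the searched motifs other than the E box.
APOA5: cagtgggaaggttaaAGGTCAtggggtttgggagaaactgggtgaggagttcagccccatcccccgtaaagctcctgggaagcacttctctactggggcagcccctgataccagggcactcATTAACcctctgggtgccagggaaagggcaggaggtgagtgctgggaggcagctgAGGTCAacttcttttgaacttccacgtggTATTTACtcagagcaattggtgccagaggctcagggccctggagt
APOA4: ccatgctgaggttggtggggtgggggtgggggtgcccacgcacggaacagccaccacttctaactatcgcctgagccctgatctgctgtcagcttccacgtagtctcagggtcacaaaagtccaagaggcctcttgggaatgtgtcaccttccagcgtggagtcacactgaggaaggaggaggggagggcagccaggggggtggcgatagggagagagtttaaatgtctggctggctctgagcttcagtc

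Motifs were sought on both strands, with the share of all 35116 RefSeq promoters of that length that hold each one. The nuclear receptor motif AGGTCA (12.1% of promoters) was found at 2 places in the APOA5 promoter, starting 235 and 74 bases before the start. GTTAAT, part of the HNF1 motif (6.23%), was found on the opposite strand from 129 bases before the start. The FOXA variant TATTTAC (2.39%) was found from 45 bases before it. The E box CANNTG (61.8%) was found at 3 places in APOA5. The APOA4 promoter held no exact match to any of the 9 motifs, which also included CAAAGTCCA (HNF4, 0.325%), TTGCNNAA (CEBP, 9.05%), TGTTTAC (FOXA, 2.98%), TATAAA (10.7%) and CCGCCC (SP1, 42.6%). A match is a string of letters and not a shown binding site. The dinucleotide CG occurred 2 times in the APOA5 promoter and 6 times in that of APOA4, against a median of 11 over all promoters (interquartile range 3 to 23). APOA5 was thus below that range and APOA4 inside it. Their G and C content was 56.4% and 59.2%, near the median of 58%. The promoters of ZPR1 and BUD13, the next protein-coding genes beyond APOA5 in RefSeq's gene order, had 19 and 26 CG dinucleotides.

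The window around the cluster was densely marked. H3K27ac peaks covered 36535 bp of the 130 kb (28.1%), H3K4me1 peaks 50209 bp (38.6%) and H3K4me3 peaks 14139 bp (10.9%). Consecutive windows of this length on chromosomes 1 to 22 and X, counting those with at least 1 peak, numbered 16047. Their mean coverage was 4.42% for H3K27ac, 9.41% for H3K4me1 and 2.17% for H3K4me3. The share of windows with fewer covered bases than the window of the cluster was 98.6% for H3K27ac, 96.9% for H3K4me1 and 97.7% for H3K4me3. These values include marks outside the 4 genes. For H3K4me3, 5027 bp lay between the first base of the window and the 3′ end of APOA5. Marking was uneven within the window. Between APOC3 and APOA1 each base lay inside an H3K27ac and an H3K4me1 peak, and between APOA4 and APOC3 the shares were 79.5% and 88.5%. From the APOA1 start to the end of the window they were 10.7% and 17.3%.

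**Figure D1:**
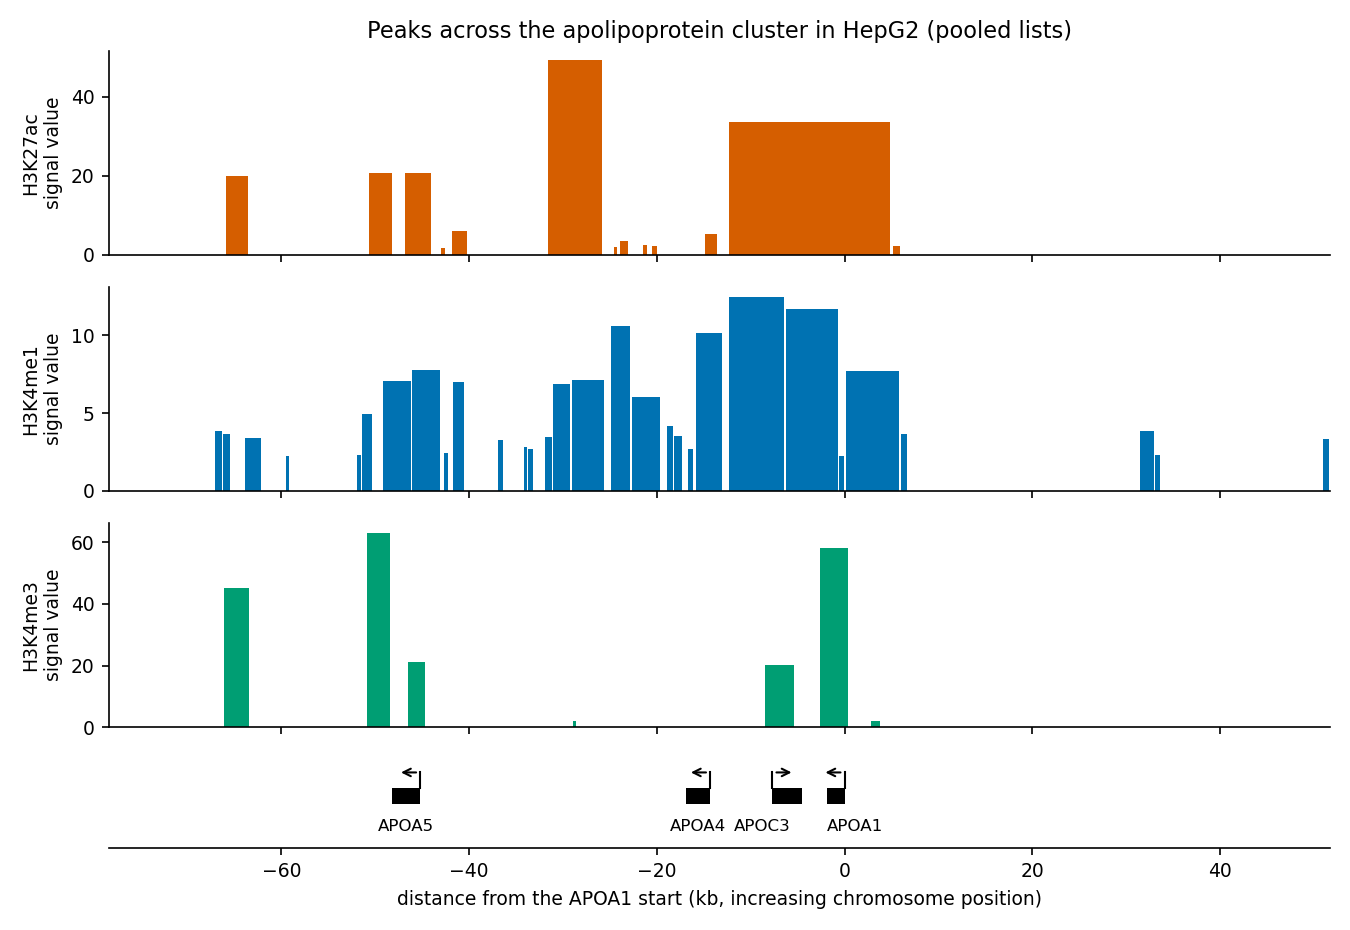
Peaks of the 3 pooled lists across the window. The x axis is the distance from the APOA1 start in kb, bar width is peak width, bar height is the authors' signal value on its own linear scale per mark, and arrows give the direction of transcription; the tallest H3K27ac bar (49.2) lies between APOA5 and APOA4, and the widest (17.1 kb) spans APOC3 and APOA1.

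At the 4 starts the marks differed from gene to gene. H3K27ac peaks held all 4 starts, H3K4me1 peaks held those of APOA5, APOA4 and APOC3, and H3K4me3 peaks held those of APOA5, APOC3 and APOA1. APOA4 was the gene without H3K4me3 at its start, and APOA1 the gene without H3K4me1 exactly there. A signal value here is the authors' own measure of a peak's strength, and it is used only to rank peaks within 1 list. It is 1 value per peak and not a value at the start that the peak holds. The summit of the H3K27ac peak shared by APOC3 and APOA1 was 8096 bp from the APOA1 start. That of the H3K4me1 peak at APOC3 was 2287 bp from its start. For H3K4me3 the signal value was 58.3 at APOA1, 21.0 at APOA5 and 20.2 at APOC3. These peaks ranked within the strongest 7.14%, 43.6% and 44.2% of the H3K4me3 list, so the APOA1 peak stood well above the other two. For H3K27ac the signal value was 33.5 for the peak shared by APOC3 and APOA1 (strongest 4.66% of the list), 20.7 at APOA5 (11.6%) and 5.21 at APOA4 (35.0%). For H3K4me1 the order was another one, with 12.5 at APOC3 (0.215%), 10.1 at APOA4 (1.07%) and 7.73 at APOA5 (4.47%).

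**Figure D2:**
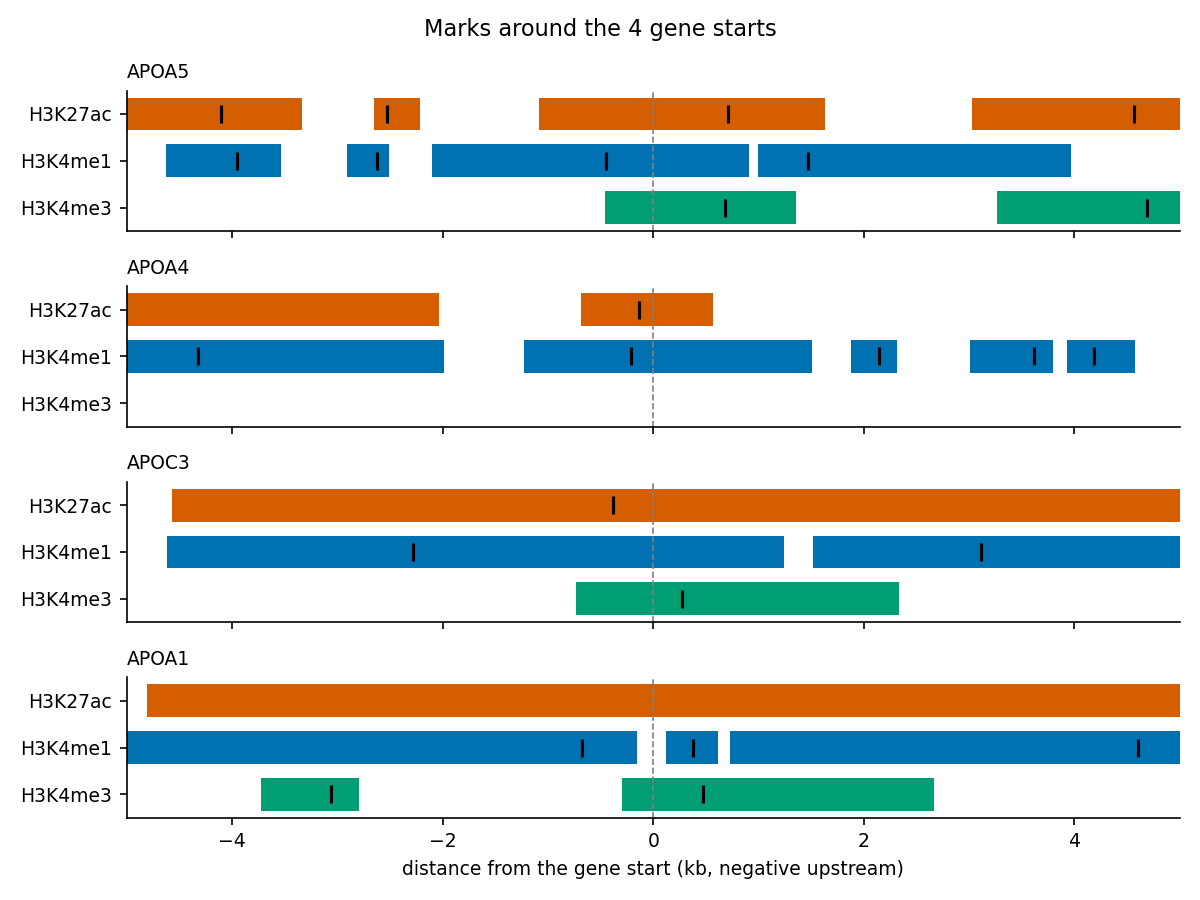
Extent of each mark within 5 kb of the 4 gene starts. The x axis is the distance from the start in kb with upstream negative, bars are peaks and black ticks their summits; APOA4 has no H3K4me3 bar within 5 kb, and the H3K4me1 bars at APOA1 leave a gap of 279 bp at the start.

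APOC3 and APOA1 lay together inside 1 H3K27ac peak, chr11:116696051-116713144, of 17094 bp. It was the 33rd widest of the 66586 peaks in its list, and 0.0496% of the list was at least as wide. The peak reached from 4573 bp upstream of the APOC3 start to 4806 bp upstream of the APOA1 start, so it held both genes whole with the intergenic stretch between their 3′ ends. Its single listed summit was 382 bp upstream of APOC3 and 8096 bp downstream of the APOA1 start. The peak overlapped 4 H3K4me1 peaks, whereas 1.01% of all H3K27ac peaks overlapped 4 or more. It also overlapped 3 H3K4me3 peaks, whereas 1.08% overlapped 2 or more. Both counts included a weak peak. The H3K4me3 peak chr11:116711134-116712065 had a signal value of 1.88 and ranked 23341 of 24481. The H3K4me1 peak chr11:116707728-116708215 had a signal value of 2.22. Wide peaks have more room for such overlaps. Of its bases, 96.1% were also inside H3K4me1 peaks and 40.8% inside H3K4me3 peaks.

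The strongest H3K4me1 of the cluster flanked APOC3. The peak at chr11:116696002-116701867 held the APOC3 start and most of the stretch up to APOA4, with its summit 2287 bp upstream of APOC3. Its signal value of 12.5 ranked 393 of 182755. The next, chr11:116702137-116707612, had a signal value of 11.7, ranked 708, and ran from the APOC3 gene body into the 3′ part of APOA1. The one after it, chr11:116708495-116714162, began 157 bp upstream of the APOA1 start and had a signal value of 7.70. Between the latter 2 lay a narrow weak peak, chr11:116707728-116708215, with a signal value of 2.22 that put it among the weakest 5% of the list. The APOA1 start fell in the gap of 279 bp beyond that peak, 123 bp from its edge.

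The H3K4me3 peaks at the apolipoprotein starts carried H3K4me1 over most of their length. H3K4me1 peaks covered 95.4% of the H3K4me3 peak at APOA5 (chr11:116661785-116663597), 91.2% of that at APOC3 (chr11:116699889-116702962) and 86.7% of that at APOA1 (chr11:116705671-116708639). Over the 10828 H3K4me3 peaks with a signal value of at least that at APOC3, the median was 36.0% (interquartile range 22.01 to 50.43). This cutoff is the lowest signal value among the peaks at these starts. The peaks at APOC3 and APOA5 ranked 10828 and 10663, at the lower end of that set. They were thus compared mostly with stronger peaks, and peaks of like strength were not compared alone. Over the 22373 peaks with a signal value of at least 2.11 the median was 49.6%. Coverage above that of the member was found in 48 of the 10828 for APOA5 (0.443%), 86 for APOC3 (0.794%) and 129 for APOA1 (1.19%). Among the 1748 peaks at least as strong as that at APOA1, 0 had more H3K4me1. The value at APOA1 rested in part on the weak peak just named: with H3K4me1 peaks held to a −log10 q-value of at least 5 it was 70.3%, and 31 of the 1748 had more. The same filter left APOA5 and APOC3 at their values.

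The summits of these 3 H3K4me3 peaks also lay inside H3K4me1 peaks. In the cluster 5 H3K4me3 peaks were at least as strong as that at APOC3. Of their summits 3 of 5 were inside H3K4me1, against 6.37% of the 10828 peaks of at least that strength in the list. Those 3 were the ones at the apolipoprotein starts. The peaks at APOC3 and APOA5 were at the lower end of the 10828 in strength, so the 6.37% came mostly from stronger peaks. The summit at APOA1 lay inside the weak H3K4me1 peak, and with the q-value filter 2 of the 5 summits remained inside. Over all H3K4me3 peaks, weak ones included, 40.6% of summits were inside H3K4me1, as were 5 of the 7 in the cluster. H3K27ac did not separate these peaks, since 5 of 5 strong summits lay inside an H3K27ac peak, against 99.2% in the list. The summits were downstream of the starts in each case, by 274 bp at APOC3, 472 bp at APOA1 and 678 bp at APOA5.

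**Figure D3:**
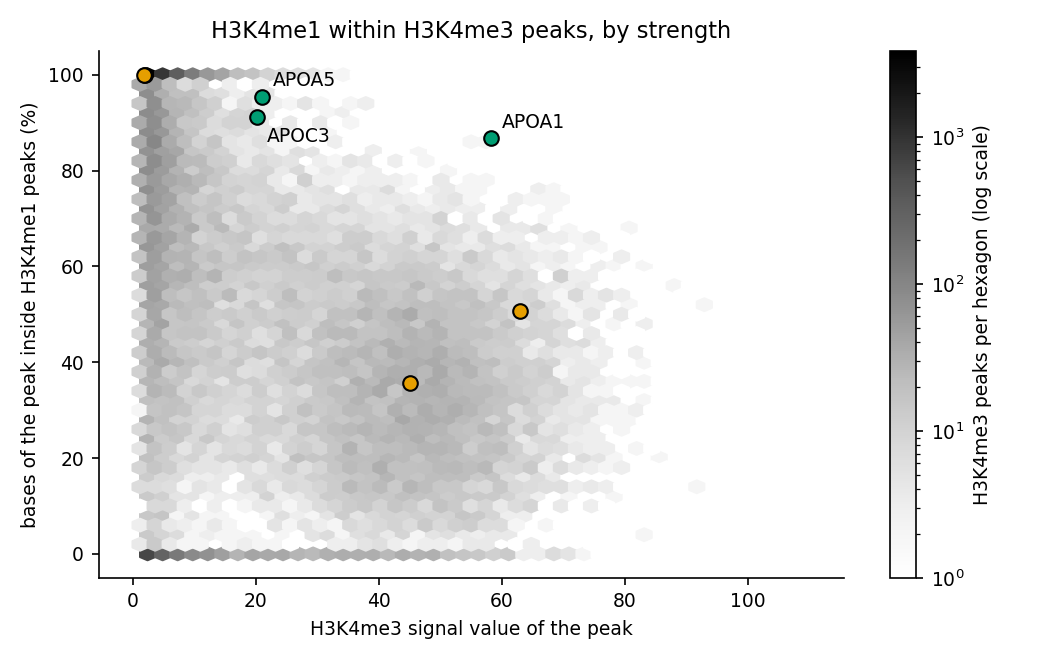
H3K4me1 coverage of H3K4me3 peaks by strength. The x axis is the H3K4me3 signal value, the y axis the percentage of the peak's bases inside H3K4me1 peaks, grey hexagons count all 24481 peaks (log scale), green points are the peaks at the named starts and orange points the other 4 of the cluster; the APOA1 point (58.3, 86.7%) lies above the grey field at its strength, and the 2 weak peaks at 100% overlap each other.

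The other 2 strong H3K4me3 peaks of the window lay beyond the 3′ end of APOA5, on the side of ZPR1 and BUD13. ZPR1 encodes a zinc finger protein and BUD13 a protein of a complex that acts in splicing. The gene positions of this side in GRCh37 were not used here, so the peaks are given by position. The peak at chr11:116657437-116659876 had the highest H3K4me3 signal value of the cluster, 63.0, and ranked 1037 of 24481. The peak at chr11:116642275-116644861 had 45.1 and ranked 5150. H3K4me1 covered 50.8% and 35.6% of them and neither summit lay inside it, so that H3K4me1 was found at their flanks. The H3K27ac peaks there, with signal values of 20.8 and 20.0, were close in strength to that at APOA5. The H3K27ac peak at APOC3 and APOA1 was stronger, with 33.5. The difference in H3K4me1 between these 2 peaks and the apolipoprotein starts was not tested, for want of replicate values.

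Of the H3K27ac peaks that held a start, that at APOA4 had the lowest signal value. The APOA4 start had no H3K4me3 and lay inside a strong H3K4me1 peak. Its start lay inside an H3K27ac peak of 1251 bp, chr11:116693444-116694694, whose signal value of 5.21 was above the list's median of 3.15. The summit was 133 bp upstream of the start. An H3K4me1 peak of 2740 bp, chr11:116692501-116695240, with its summit 209 bp upstream, contained the acetylated peak whole. No H3K4me3 peak lay within 5 kb, and the nearest was that at APOC3, 5878 bp from the APOA4 start. Of the APOA4 span, 21.9% was inside H3K27ac and 74.98% inside H3K4me1. The corresponding values were 54.2% and 97.2% for APOA5, 100% and 91.5% for APOC3, and 100% and 87.3% for APOA1. H3K4me3 covered 44.3% of APOA5, 73.9% of APOC3 and 100% of APOA1. The acetylated peaks at APOA4 and at APOC3 were separate calls with 1356 bp between them.

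APOA5 carried all 3 marks at its start. Its H3K27ac peak, chr11:116661507-116664226, reached 1090 bp upstream and 1629 bp downstream of the start. The H3K4me3 peak was narrower, with 1813 bp, and lay mostly on the gene body. H3K4me1 was called as 2 peaks with 84 bp between them, 1 on each side of that gap, and together they covered 97.2% of the gene. The acetylated peak of APOA5 was separated by 1397 bp from the one at the gene's 3′ end, most of which lay beyond the gene. In the other direction followed a weak H3K27ac peak with a signal value of 1.81, and then chr11:116666476-116668131 with 6.11. The latter was the strongest acetylated peak of the cluster with no H3K4me3 overlap, with its summit 4102 bp upstream of the APOA5 start.

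The strongest acetylation of the cluster was away from all 4 starts. The H3K27ac peak chr11:116676698-116682542, of 5845 bp, had a signal value of 49.2 and ranked 873 of 66586, in the strongest 1.31% of the list. It lay between APOA5 and APOA4, with its nearest edge 13.6 kb upstream of the APOA5 start and 11.5 kb downstream of the APOA4 start. Its summit was 21.1 kb upstream of the APOC3 start and 28.8 kb downstream of the APOA1 start. RefSeq's gene order lists 1 gene between APOA5 and APOA4, the long non-coding RNA LNC-RHL1. Its position in GRCh37 was not used here. H3K4me1 covered 95.8% of the peak as 3 calls, of which the strongest had a signal value of 7.09 and ranked within 6.46% of its list. H3K4me3 was present over 324 bp, 5.54% of the acetylated peak, with a signal value of 2.11 that ranked in the weakest 10% of the list. That small overlap places the peak among those with H3K4me3 when 1 bp is enough. When at least 50% of the peak must be covered, it counts with H3K4me1 alone.

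Beside it, H3K4me1 and H3K27ac differed in strength. The H3K4me1 peak chr11:116683499-116685511 had a signal value of 10.6 and ranked within the strongest 0.812% of its list, ahead of the H3K4me1 at the strongest acetylated peak. The 2 H3K27ac peaks inside it had signal values of 1.91 and 3.39, close to the list's median of 3.15 or below it. Further towards APOA4 an H3K4me1 peak with 6.01, within the strongest 11.8% of its list, held 2 H3K27ac peaks with 2.42 and 2.17. Over the stretch from APOA5 to APOA4, H3K4me1 covered 61.7% of bases, H3K27ac 39.0% and H3K4me3 2.78%.

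**Figure D4:**
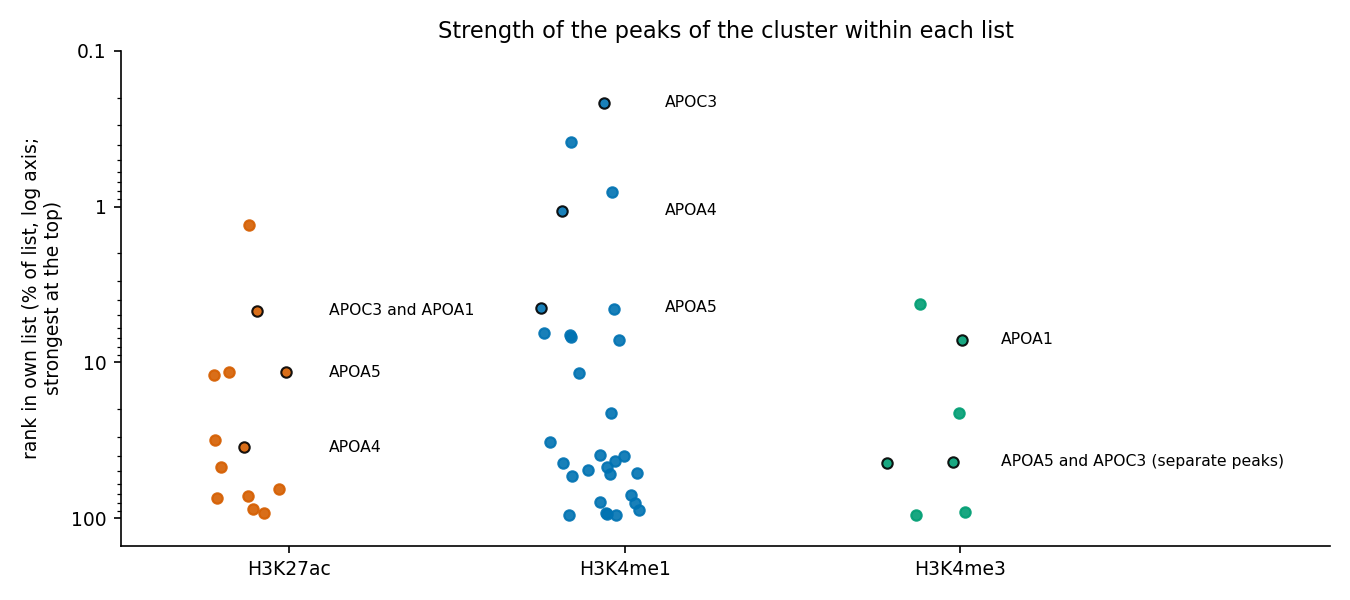
Rank of each peak of the cluster within its own list. The y axis is the rank by signal value as a percentage of the list on a log scale, strongest at the top, points are peaks (spread sideways for legibility) and outlined points hold the start of the named genes; APOC3 leads for H3K4me1 (0.215%), and the highest H3K27ac (1.31%) and H3K4me3 (4.24%) points hold no member start.

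Mark combinations of the 13 acetylated peaks were close to those of the whole list. Of the 13 H3K27ac peaks 5 overlapped H3K4me3 (list, 31.7%), 13 overlapped H3K4me1 (list, 87.4%), 8 overlapped H3K4me1 without H3K4me3 (list, 59.8%) and 0 overlapped neither (list, 8.53%). All 7 H3K4me3 peaks overlapped H3K27ac (list, 77.5%) and H3K4me1 (list, 92.7%). Of the 30 H3K4me1 peaks 17 overlapped H3K27ac (list, 33.4%), 10 overlapped H3K4me3 (list, 18.9%) and 13 overlapped neither (list, 61.6%). By definition 10.0% of a list is in its strongest 10%, and 10 of the 30 H3K4me1 peaks of the cluster (33.3%) were. The numbers were 2 of 13 for H3K27ac (15.4%), near the share of the list, and 2 of 7 for H3K4me3. These counts are small and the peaks are neighbours at 1 locus, so they describe the cluster and do not set it apart from other loci.

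Beyond the genes H3K27ac ended within 6 kb of the APOA1 start. The last H3K27ac peak, chr11:116713492-116714213, had a signal value of 2.22, and the next one along the chromosome lay 67.1 kb further, beyond the window. In RefSeq's order APOA1 is followed by its antisense RNA APOA1-AS and by SIK3, which encodes a salt-inducible kinase. On the other side the first H3K27ac peak of the window was preceded by 190.2 kb without one. The H3K27ac peaks of the window thus stood between stretches of the chromosome with none. The lengths of these stretches were not compared with gaps elsewhere in the list.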

How the data were processed

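ChIP-seq peaks of H3K27ac, H3K4me1 and H3K4me3 in HepG2 cells were taken from 3 deposited lists. Going by their names, the lists pool the 3 libraries of each mark. MACS2 and hg19 (GRCh37) are named in the submitters' processing notes, without role or settings. The aligner, thresholds and the use of the control libraries are not given in the sources used here. Each peak has the authors' signal value, whose reference is not stated, and the deposited −log10 of its p-value and q-value. The deposited score was not used.

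Positions were counted from 1. Peaks of different lists overlapped with at least 1 bp in common. Gene spans came with the rule that defines the window, and members and lists were chosen with earlier results of these data known. No further gene positions of GRCh37 were used. Marks at other lipoprotein genes, liver markers and genes of like profile were therefore not analysed here. Peaks named were those at or within 1000 bp of a member start, the strongest of each list, and the strongest acetylated one away from H3K4me3. Others were chosen after their values were seen. Comparison windows of the same length were laid end to end from base 1 of each chromosome to its last peak. Neighbouring genes and promoters were from RefSeq (GRCh38.p14). The overlap code was tested on simulated data. Python 3.11.15, numpy 2.4.6, scipy 1.17.1 and matplotlib 3.10.9 were used.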

Additional observations from a re-analysis of the deposited data

How the results depend on the processing

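Alternatives were run for 22 results, giving 72 values, of which 60 stayed close to the reported value and 12 moved. For counts, close was a loose label. It took in 9 H3K27ac peaks in the window with joining, against 13. With the q-value filter it took in 23 H3K4me1 peaks, against 30, and 2 strong H3K4me3 summits inside H3K4me1, against 3. Taking the stronger 50% of each list left 8 H3K27ac and 19 H3K4me1 peaks in the window and 4 acetylated peaks with H3K4me1 and not H3K4me3. Joining peaks within 1000 bp gave 10 H3K4me1 peaks and 4 such acetylated peaks. Requiring 50% of an acetylated peak to be covered gave 3 with H3K4me3 and 1 with neither methylation. Fewer or joined peaks follow from how these alternatives are built. H3K4me1 coverage of the APOA1 H3K4me3 peak was 70.3% with the q-value filter and with the stronger 50%, and joining raised it to 100% at APOA5, APOC3 and APOA1. With joining, 17.3% of the 10828 strong H3K4me3 summits lay inside H3K4me1. These alternatives for H3K4me1 at H3K4me3 peaks, and the measures themselves, were chosen after seeing the data. Counting a peak within 500 bp of a start added H3K4me1 at APOA1, so that 4 starts had it. H3K27ac at 4 starts and H3K4me3 at 3 held under each alternative run. No paired analysis was possible because each mark has 1 pooled list with no replicate values. The lipoprotein gene count was not run. Depth is unknown, and a stretch without a peak may hold signal below the authors' threshold.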

Other observations

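H3K4me1 reached further in the window than the other marks. It also had the highest mean coverage over all comparison windows (9.41%), so this was not particular to the cluster. Of its 30 peaks in the window 13 overlapped neither H3K27ac nor H3K4me3 (43.3%), a smaller share than in the whole list (61.6%). These included 3 peaks in the APOA1-side part of the window more than 30 kb upstream of the APOA1 start, with signal values of 3.82, 2.28 and 3.36. A further 3 lay in the quiet middle of the stretch between APOA5 and the strongest acetylated peak, with 3.30, 2.85 and 2.69. Downstream of the APOA4 start 3 more, with 4.18, 3.52 and 2.66, lay over or just beyond the 3′ end of the gene. The longest stretches of the window with no peak of any mark were 24.8 kb and 17.4 kb long, both upstream of APOA1. In all, 57.7% of the bases of the window lay in no peak.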
